A study of Homo sapiens with 42 samples.

Results

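The genes described here are 10 mesenchymal transcription factors, fibroblast markers and mesenchymal structural genes in 1205Lu melanoma cells treated with an inhibitor of the Aurora kinases. They were taken by name: the factors PRRX1, TWIST1, SNAI2, ZEB1 and ZEB2, the fibroblast markers FAP, PDGFRA and PDGFRB, and the structural genes CDH2 and VIM. The choice was made with earlier results of these data known. The array held 15 probes annotated to these 10 genes among 47312 probes, and 20043 genes had a named probe. A signal above background was required on at least 3 arrays of 1 group, which 9 of the 10 genes met, among 8917 genes tested. Each of the 9 lay above background on all 42 arrays, so none of them entered through a single group in which it was high. The single ZEB1 probe lay above background on 4 arrays, 2 of SNS-314 at 12 h and 1 each of AZD1152 at 18 h and 48 h, and ZEB1 was not tested.

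1205Lu is an established human melanoma line. Its total RNA was hybridised to 42 Illumina bead arrays of 1 colour, each holding 1 sample, after 0.5 µM AZD1152, which inhibits mainly Aurora kinase B, or 0.05 µM SNS-314, which inhibits the Aurora kinases in general. There were 4 untreated control arrays at 0 h, 3 arrays per inhibitor at 6 h, and 4 per inhibitor at each of 12, 18, 24 and 48 h. Every comparison with 0 h therefore holds the inhibitor and the time in culture together, and the 10 such comparisons share the same 4 control arrays. The labels do not say whether replicates came from separate cultures, so p-values cover no more than the spread among these arrays, which could be technical. In RNA of a whole culture, fewer cells that express a gene and less of its RNA per cell cannot be told apart.

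Mesenchymal cells, fibroblasts among them, are loosely attached, migratory cells that build connective tissue. SNAI2, ZEB1, ZEB2 and TWIST1 bind E-box sequences in promoters and repress genes of epithelial adhesion such as the one for E-cadherin, and PRRX1 is a homeobox factor of limb and connective tissue mesenchyme. When epithelial cells take on a mesenchymal state, E-cadherin gives way to N-cadherin (CDH2), and keratins give way to vimentin (VIM). Melanocytes come from the neural crest, itself formed by such a transition, and normal melanocytes express SNAI2 and ZEB2, whereas ZEB1 and TWIST1 are known from invasive melanoma. FAP is a surface protease of activated fibroblasts, and PDGFRA and PDGFRB are the receptors for platelet-derived growth factors on mesenchymal cells.

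Precision is limited by the number of arrays, and the SE of a difference had a median of 0.12 on the log2 scale. Median raw intensities per array ran from 210.0 to 338.6, and 20.5% to 30.4% of probes lay above background. The 3 arrays with the largest residual spread were AZD1152 at 18 h replicates 1 and 4 and SNS-314 at 12 h replicate 4, and results that depend on them are given with and without them. Among 9 fibroblast markers, FAP, PDGFRA and PDGFRB lay above background on every array, while COL1A1, COL1A2, COL3A1, LUM, DCN and THY1 lay above it on none. Of other collagen and proteoglycan genes, COL5A1, COL6A1 and VCAN were among those above background on every array, and COL5A2 was on none. The summed raw intensity of the 9 fibroblast marker probes was 6297 to 6900 on the control arrays, 6509 to 7742 with AZD1152 at 48 h and 6611 to 8488 with SNS-314 at 48 h. It was 7362 to 9323 with AZD1152 at 24 h and 5521 to 9214 with SNS-314 at 12 h. These sums were not normalised between arrays and include the 6 genes never above background, so the groups are not strictly comparable. Of the melanocyte lineage markers SOX10 lay above background on all arrays, and TYR, TYRP1, PMEL, MLANA and S100B on none. No MITF probe lay above background on more than 1 array, and none did on a control. CD68 was the 1 leukocyte marker above background throughout, with PTPRC, CD3E, LYZ and ITGAM on none, and among the endothelial markers PECAM1, CDH5, KDR and TEK were on none. KRT10 was the 1 keratinocyte marker above background on all arrays, with KRT5, KRT14, KRT1 and DSG3 on none. Among the melanocyte lineage markers with a probe SOX10 alone therefore bore out the label of a melanoma line, and the others did not. The name fibroblast marker is used below for what FAP, PDGFRA and PDGFRB are known for, not for a cell type in the culture.

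The first question was how these genes moved from 0 h under each inhibitor. By 48 h FAP, PRRX1 and PDGFRB were higher with both inhibitors, and CDH2 was lower with both. PDGFRA was higher at 48 h with both by its brighter probe, but with AZD1152 its second probe, about as bright, differed by 0.03 (adjusted p = 0.873). Earlier the pattern was different: SNAI2 was lower from 6 h to 18 h with both inhibitors by its brighter probe, PDGFRB was lower at 12 h with both, and PRRX1 and PDGFRA were higher at 24 h with both. A change was called at an adjusted p under 0.05 (limma, Benjamini-Hochberg over the 8917 genes). With AZD1152, 3 of 9 genes were called at 6 h, 3 at 12 h, 3 at 18 h, 2 at 24 h and 5 at 48 h, where the share called among all genes was 2.69%, 4.27%, 17.7%, 16.8% and 42.5%. With SNS-314, 1, 4, 3, 4 and 6 of 9 were called at the same times, against 3.71%, 5.58%, 9.72%, 19.8% and 45.3% of all genes. At 48 h so many of all genes were called that 5 and 6 calls of 9 are not particular to this set. The median change of the 9 genes at 48 h was 0.24 with AZD1152 and 0.33 with SNS-314, beside a median over all genes of -0.0021 and -0.0064. The genes were chosen with earlier results of these data known. These shares and medians are therefore descriptions and test no excess over all genes. In total there were 34 calls over the 10 comparisons, and 35 without the 3 arrays of large residual spread with each gene kept on its probe, where 2 calls were lost and 3 gained. With the probe chosen anew on the remaining arrays, which moved PDGFRA to its second probe, there were 32, with 5 lost and 3 gained. No call changed sign under the alternative settings or with any array left out in turn. Column names end in digits taken here as the bead chip, which no label states. Within chips that held controls, each value set 1 treated array against 2 controls, all of them already in the fit. The sign was kept by all 68 such values for called changes and by 89 of 112 for changes not called. For called changes that agreement was largely given beforehand.

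**Figure D1:**
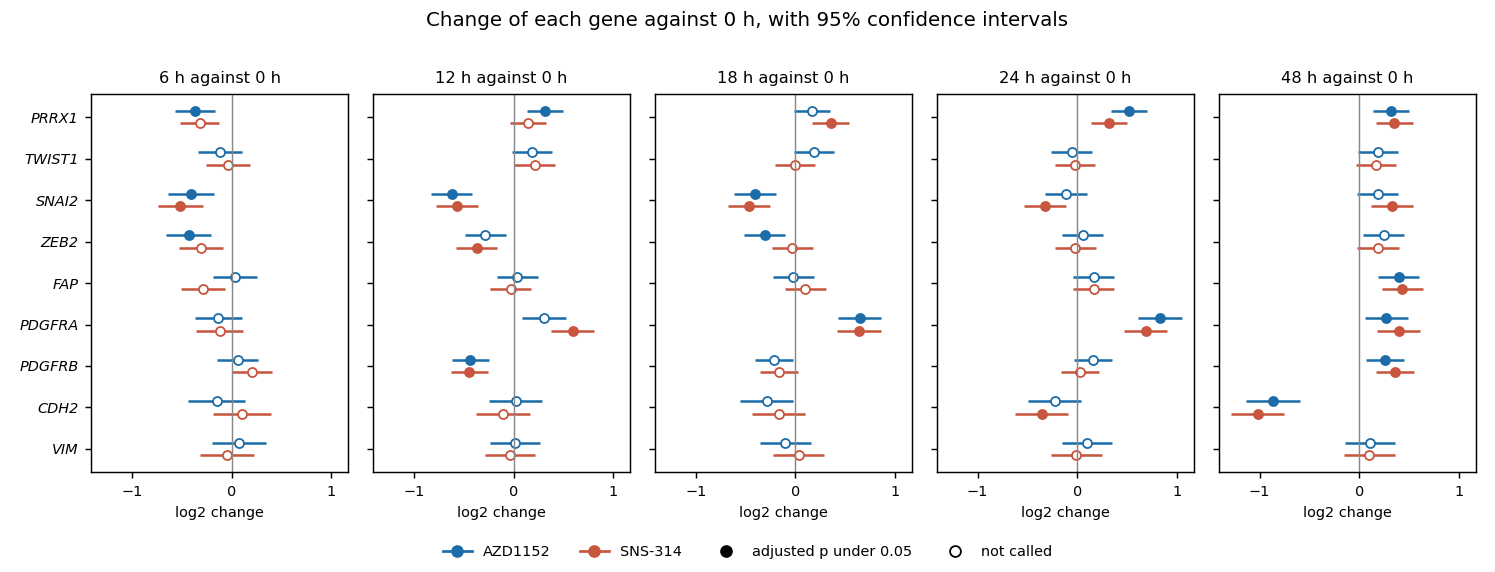
Log2 change of each gene from 0 h at 6, 12, 18, 24 and 48 h (horizontal axis) with AZD1152 (blue) and SNS-314 (red), with 95% confidence intervals; filled points have an adjusted p under 0.05. PDGFRA reaches 0.83 and 0.68 at 24 h, SNAI2 lies below 0 from 6 to 18 h, and CDH2 lies at -0.87 and -1.02 at 48 h.

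PRRX1 (chromosome 1, 170662768 to 170739421, GRCh38.p14), the homeobox factor of mesenchyme, was lower at 6 h with AZD1152 and higher at 24 h and 48 h with both inhibitors. Its brighter probe read 12.49, 12.40, 12.48 and 12.56 (log2 intensity) on the controls, and 12.14, 12.09 and 12.12 at 6 h with AZD1152. With SNS-314 at 6 h it read 12.32, 12.10 and 12.07. All 6 arrays of 6 h lay below every control. The difference from 0 h was -0.37 ± 0.10 (SE) with AZD1152 (adjusted p = 0.0242, limma), and -0.32 ± 0.10 with SNS-314, which was not called (adjusted p = 0.0537). At 24 h the same probe read 12.91, 13.10, 13.01 and 12.96 under AZD1152, and 12.71, 12.71, 12.87 and 12.89 under SNS-314. Every array of 24 h lay above every control, and PRRX1 rose by 0.51 ± 0.09 with AZD1152 (1.43-fold, adjusted p = 3.99e-05) and by 0.31 ± 0.09 with SNS-314 (1.24-fold, adjusted p = 0.0103). It was also higher at 12 h with AZD1152 (0.31 ± 0.09, adjusted p = 0.0344) and at 18 h with SNS-314 (0.35 ± 0.09, adjusted p = 0.00783). The differences at 18 h with AZD1152 (0.16 ± 0.09, adjusted p = 0.211) and at 12 h with SNS-314 (0.15 ± 0.09, adjusted p = 0.383) were not called, and those arrays overlapped the controls. Without the 3 arrays of large residual spread PRRX1 was called higher at 18 h with AZD1152 (0.31, adjusted p = 0.0351). It was then also called lower at 6 h with SNS-314 (-0.32, adjusted p = 0.0144). At 48 h it read 12.88, 12.70, 12.85 and 12.77 under AZD1152 and 12.78, 12.77, 12.82 and 12.97 under SNS-314. These 8 arrays again lay above all controls, with rises of 0.32 ± 0.09 (adjusted p = 0.00370) and 0.35 ± 0.09 (adjusted p = 0.00145). The AZD1152 call at 6 h was lost without any of AZD1152 6 h replicates 1, 2 and 3 or control replicates 1, 3 and 4 (-0.34 to -0.38, adjusted p 0.0520 to 0.116) and with 75th percentile scaling (0.182) or no filter (0.0854), and that at 12 h without any of AZD1152 12 h replicates 2, 3 and 4 or control replicates 1, 2 and 3 (0.29 to 0.32, 0.0637 to 0.119) and with no filter (0.112). The second PRRX1 probe lay below background on all 42 arrays.

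SNAI2 (Slug), a zinc finger repressor of the Snail family, had its lowest means at 12 h and recovered by 48 h. By its brighter probe the steps from 6 h to 12 h and from 12 h to 18 h were not called with either inhibitor. Its brighter probe read 12.63, 12.75, 12.66 and 12.55 on the controls. At 12 h it read 12.04, 12.05, 12.06 and 11.95 under AZD1152, and 12.11, 12.00, 12.12 and 12.09 under SNS-314. The 8 arrays of 12 h lay far below the controls and close to each other. SNAI2 fell by 0.62 ± 0.10 with AZD1152 (1.54-fold, adjusted p = 8.58e-05) and by 0.57 ± 0.10 with SNS-314 (1.48-fold, adjusted p = 0.00028). By this probe it was also lower at 6 h, by 0.41 ± 0.11 with AZD1152 (adjusted p = 0.0350) and by 0.51 ± 0.11 with SNS-314 (adjusted p = 0.00278), and at 18 h, by 0.41 ± 0.10 (adjusted p = 0.00485) and by 0.47 ± 0.10 (adjusted p = 0.00192). At 48 h the probe read 12.84, 13.07, 12.72 and 12.68 with AZD1152, overlapping the controls, and 12.98, 13.18, 12.88 and 12.87 with SNS-314, above all of them. The differences were 0.18 ± 0.10 with AZD1152, not called (adjusted p = 0.161), and 0.33 ± 0.10 with SNS-314, which was called (adjusted p = 0.00864). The second SNAI2 probe, also above background on all arrays, gave smaller falls at 12 h (-0.43 ± 0.09 and -0.37 ± 0.09) and larger rises at 48 h, 0.50 ± 0.09 with AZD1152 (adjusted p = 2.85e-05 over all probes kept) and 0.52 ± 0.09 with SNS-314 (1.41e-05). At 6 h it differed by -0.19 ± 0.10 under AZD1152 (adjusted p = 0.489), and under SNS-314 the difference was -0.31 ± 0.10 (adjusted p = 0.0780), neither of them called. Its differences at 18 h were -0.20 ± 0.09 with AZD1152 and -0.10 ± 0.09 with SNS-314, and neither was called.

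Some SNAI2 calls rested on single arrays or on the choice of probe. The AZD1152 call at 6 h was lost without any of AZD1152 6 h replicates 1, 2 and 3 or control replicates 1, 2 and 3 (-0.37 to -0.45, adjusted p 0.0607 to 0.188) and with no filter (0.104) or 75th percentile scaling (0.108). The AZD1152 call at 18 h was lost without the 3 arrays of large residual spread (-0.31, adjusted p = 0.128) and in a fit of those groups alone (0.0541). At 24 h SNAI2 was lower with SNS-314 (-0.32 ± 0.10, adjusted p = 0.0226), with values of 12.60, 12.45, 12.26 and 11.98 that overlapped the controls. That call was lost without SNS-314 24 h replicate 4 (-0.21, adjusted p = 0.172), replicate 3 (-0.30, 0.0626), control replicate 2 (-0.29, 0.0750) or control replicate 3 (-0.32, 0.0501), with the mean of both probes (-0.18, 0.0875), with no filter (0.0649) and in a fit of those groups alone (0.0730). The mean of both probes also moved the SNS-314 difference at 18 h to -0.28, still called, and the rise at 48 h with SNS-314 was lost without SNS-314 48 h replicate 2 (0.26, adjusted p = 0.0515).

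ZEB2 (chromosome 2, 144384081 to 144520119), a zinc finger repressor that normal melanocytes express, read 10.03, 9.82, 9.74 and 9.98 on the controls. At 6 h it read 9.47, 9.50 and 9.43 under AZD1152 and 9.68, 9.32 and 9.75 under SNS-314. The AZD1152 arrays lay below all controls, and 1 SNS-314 array reached into their range. ZEB2 fell by 0.43 ± 0.11 at 6 h with AZD1152 (adjusted p = 0.0176), and the SNS-314 difference of -0.31 ± 0.11 was not called (adjusted p = 0.132). It was also lower at 12 h with SNS-314 (-0.37 ± 0.10, adjusted p = 0.0215) and at 18 h with AZD1152 (-0.31 ± 0.10, adjusted p = 0.0310). At 48 h the arrays read 9.97, 10.19, 10.09 and 10.30 under AZD1152 and 10.02, 10.10, 10.16 and 10.04 under SNS-314, overlapping the highest control. The differences of 0.24 ± 0.10 and 0.19 ± 0.10 were not called (adjusted p = 0.0517 and 0.133). Without the 3 arrays of large residual spread the AZD1152 rise at 48 h was called (0.24, adjusted p = 0.0295). All 3 ZEB2 calls over all arrays were lost with 75th percentile scaling (adjusted p 0.0830 to 0.124) and with no filter (0.0577 to 0.0840), and those at 12 h and 18 h also in a fit of those groups alone (0.115 and 0.140). The 18 h call was lost without the 3 arrays of large residual spread (-0.19, adjusted p = 0.368), without AZD1152 18 h replicate 1 or 4 (-0.31, 0.0597, and -0.22, 0.15) and without control replicate 1 or 4 (-0.26, 0.0995, and -0.28, 0.0889). The 6 h call was lost without any of its 3 AZD1152 arrays or control replicate 1 or 4 (-0.38 to -0.45, 0.0595 to 0.103), and the 12 h call without SNS-314 12 h replicate 1 or control replicate 1 or 4 (-0.29 to -0.34, 0.0754 to 0.0867). The second ZEB2 probe lay below background on all arrays.

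TWIST1 (chromosome 7, 19113047 to 19117636), a basic helix-loop-helix factor, varied little. Its probe ranged from 10.01 to 10.73 over all 42 arrays, with means of 10.31 ± 0.10 (SD, n = 4) on the controls, 10.50 ± 0.13 with AZD1152 at 48 h and 10.48 ± 0.18 with SNS-314 at 48 h. The groups overlapped at 48 h, and no difference from 0 h was called at any time. The largest was 0.21 ± 0.10 at 12 h with SNS-314 (adjusted p = 0.225), and the 95% intervals of the 10 differences ran from -0.33 to 0.41. The ZEB1 probe read between 6.68 and 8.45, and its reading stayed below the background threshold on 38 of 42 arrays, so ZEB1 is given no fold change.

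**Figure D2:**
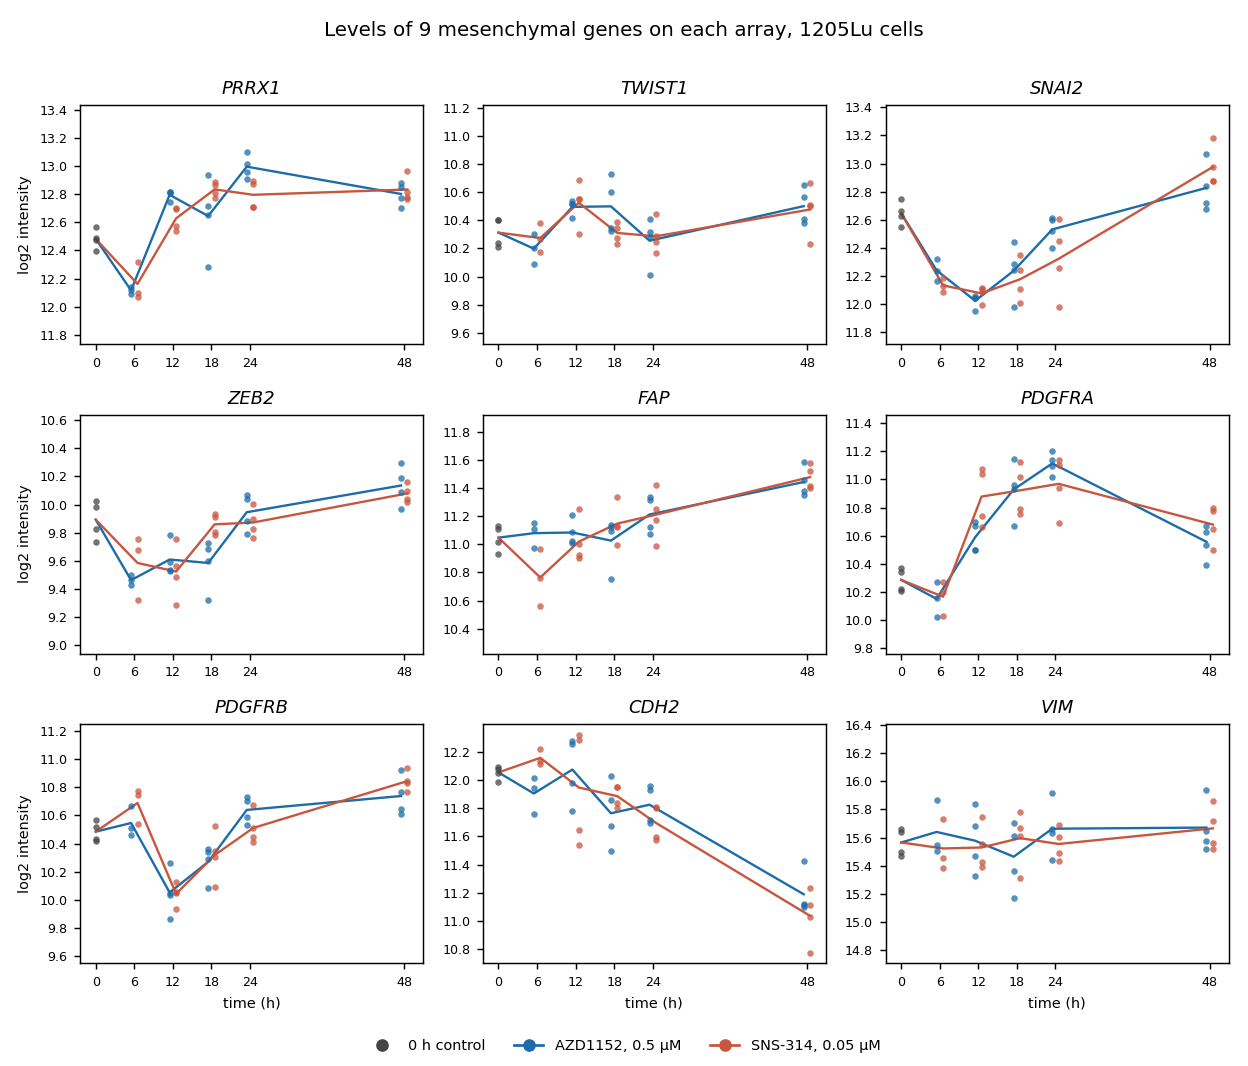
Log2 intensity of the brighter passing probe of each gene (vertical axis) against time in hours (horizontal axis) on each array; points are arrays, lines join group means and start at the mean of the 4 controls. PRRX1 and PDGFRA rise between 6 h and 12 h, PDGFRB and SNAI2 are low at 12 h, CDH2 is lowest at 48 h, and the VIM groups overlap throughout.

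FAP (chromosome 2, 162170684 to 162243445), the surface protease of activated fibroblasts, changed late. It read 11.11, 11.13, 11.02 and 10.93 on the controls, 11.38, 11.46, 11.35 and 11.58 with AZD1152 at 48 h, and 11.41, 11.52, 11.58 and 11.40 with SNS-314 at 48 h. All 8 treated arrays lay above all 4 controls. The rise was 0.40 ± 0.10 with AZD1152 (1.32-fold, adjusted p = 0.00160) and 0.43 ± 0.10 with SNS-314 (1.35-fold, adjusted p = 0.000621), and both calls held in each alternative and with each array left out in turn. At 24 h the means of 11.21 ± 0.13 and 11.21 ± 0.18 (SD, n = 4) came from arrays that overlapped the controls, and no call was made (adjusted p = 0.293 and 0.281). At 6 h with SNS-314 the arrays read 10.97, 10.56 and 10.76, the highest of them within the range of the controls. The difference of -0.28 ± 0.11 was not called (adjusted p = 0.188).

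PDGFRA (chromosome 4, 54229293 to 54298245), the alpha receptor for platelet-derived growth factors, had the largest rise of the 9 genes. Its mean was highest at 24 h and lower again at 48 h. By its brighter probe the step from 18 h to 24 h was not called with either inhibitor. The brighter of its probes read 10.34, 10.21, 10.37 and 10.22 on the controls. At 24 h it read 11.14, 11.10, 11.02 and 11.20 under AZD1152, and 11.10, 11.14, 10.94 and 10.69 under SNS-314. Each of these 8 arrays lay above every control. PDGFRA rose by 0.83 ± 0.11 with AZD1152 (1.78-fold, adjusted p = 2.14e-07) and by 0.68 ± 0.11 with SNS-314 (1.61-fold, adjusted p = 6.95e-06), and both calls held in each alternative and with each array left out in turn. At 18 h the rises were 0.64 ± 0.11 (adjusted p = 3.01e-05) and 0.64 ± 0.11 (adjusted p = 5.58e-05), and at 12 h the SNS-314 rise was 0.59 ± 0.11 (adjusted p = 0.00028). At 12 h with AZD1152 the difference of 0.30 ± 0.11 was not called (adjusted p = 0.112). By 48 h the arrays read 10.39, 10.67, 10.63 and 10.54 under AZD1152 and 10.50, 10.78, 10.80 and 10.64 under SNS-314. They still lay above the controls, by 0.27 ± 0.11 (adjusted p = 0.0403) and by 0.39 ± 0.11 (adjusted p = 0.00283).

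The second PDGFRA probe was about as bright and did not give every one of these calls. It was called higher at 24 h, by 0.60 ± 0.14 with AZD1152 (adjusted p = 0.00156) and by 0.69 ± 0.14 with SNS-314 (adjusted p = 0.000246), and at 18 h with SNS-314 by 0.52 ± 0.14 (adjusted p = 0.0110). At 18 h with AZD1152 it read 10.11, 10.78, 10.83 and 10.49, against 10.47, 10.38, 10.29 and 10.54 on the controls, and the difference of 0.13 ± 0.14 was not called (adjusted p = 0.541). Replicates 1 and 4, the lowest of those readings, are 2 of the 3 arrays of large residual spread. At 48 h with AZD1152 it differed from the controls by 0.03 ± 0.14 (adjusted p = 0.873), and at 12 h with SNS-314 by 0.28 ± 0.14 (adjusted p = 0.258). The mean of both probes gave 0.39 at 18 h with AZD1152, still called (adjusted p = 0.00189), and 0.15 at 48 h, not called (0.170). Leaving out single arrays kept the 18 h rise with AZD1152 between 0.57 and 0.73 by the first probe. Without the 3 arrays of large residual spread the first probe kept these calls against 0 h, with 0.66 at 18 h with AZD1152 (adjusted p = 0.000275), 0.54 at 12 h with SNS-314 (0.00136) and 0.27 at 48 h with AZD1152 (0.0261). On the remaining arrays the second probe was the brighter one, and by it the differences were 0.39 at 18 h with AZD1152 (adjusted p = 0.0955), 0.38 at 12 h with SNS-314 (0.0870) and 0.03 at 48 h with AZD1152 (0.841). By the first probe the AZD1152 call at 48 h was lost without any of AZD1152 48 h replicates 2, 3 and 4 or control replicates 2 and 4 (0.23 to 0.28, 0.0605 to 0.114), with 75th percentile scaling (0.0570) and with no filter (0.0960).

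**Figure D3:**
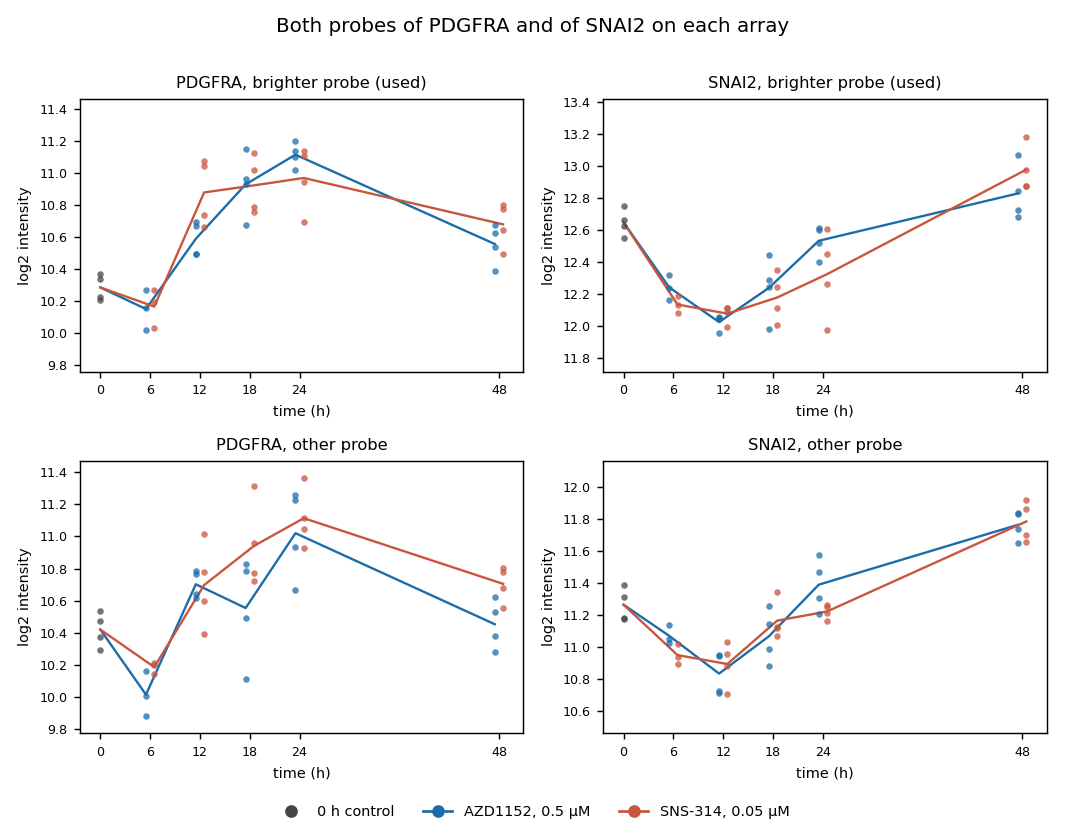
Log2 intensity (vertical axis) against time in hours (horizontal axis) for both probes of PDGFRA (left) and of SNAI2 (right), with 1 point per array and lines through group means. Both PDGFRA probes are high at 24 h, and they part at 18 h with AZD1152, where the second probe has a low array at 10.11; both SNAI2 probes are low at 12 h.

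PDGFRB (chromosome 5, 150113839 to 150155845), the beta receptor, moved differently from its partner. It read 10.42, 10.51, 10.44 and 10.57 on the controls, 10.04, 10.26, 10.05 and 9.86 at 12 h with AZD1152, and 10.12, 10.06, 10.05 and 9.93 at 12 h with SNS-314. The arrays of 12 h lay below every control. PDGFRB fell by 0.43 ± 0.09 with AZD1152 (1.35-fold, adjusted p = 0.00294) and by 0.44 ± 0.09 with SNS-314 (1.36-fold, adjusted p = 0.00174), and both calls held in each alternative and with each array left out in turn. At 48 h it read 10.93, 10.77, 10.65 and 10.61 under AZD1152 and 10.83, 10.93, 10.77 and 10.84 under SNS-314. All were above the highest control, with rises of 0.25 ± 0.09 (adjusted p = 0.0264) and 0.36 ± 0.09 (adjusted p = 0.00167). The smaller of these rises was lost without AZD1152 48 h replicate 1 (0.19, adjusted p = 0.125) or 2 (0.24, 0.0555), without control replicate 1 (0.23, 0.0663) or 3 (0.24, 0.0627), and with no filter (0.0724).

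CDH2 (chromosome 18, 27932879 to 28177130), which encodes N-cadherin, the adhesion protein of mesenchymal cells and of many melanomas, had the largest change of the 9 genes, a fall at 48 h. It read 12.05, 12.08, 11.99 and 12.09 on the controls, 11.43, 11.10, 11.12 and 11.11 with AZD1152 at 48 h, and 11.23, 10.77, 11.03 and 11.11 with SNS-314 at 48 h. The groups were separated by a wide gap. CDH2 fell by 0.87 ± 0.13 with AZD1152 (1.82-fold, adjusted p = 9.38e-07) and by 1.02 ± 0.13 with SNS-314 (2.03-fold, adjusted p = 3.13e-08), and both calls held in each alternative and with each array left out in turn. Up to 18 h no difference from 0 h was called. At 24 h the arrays read 11.57, 11.60, 11.81 and 11.80 with SNS-314, below all controls, and 11.93, 11.70, 11.96 and 11.72 with AZD1152, also below them. The difference was -0.36 ± 0.13 with SNS-314, just past the threshold (adjusted p = 0.04996), and -0.23 ± 0.13 with AZD1152 (adjusted p = 0.253). The SNS-314 call was lost without any 1 of its 4 SNS-314 or 4 control arrays (-0.32 to -0.40, adjusted p 0.0529 to 0.125), with 75th percentile scaling (0.0936), with no filter (0.116), and with the chip as a random (0.0598) or fixed block (0.0877).

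VIM (chromosome 10, 17228241 to 17237593), the intermediate filament protein of mesenchymal cells, did not pass the test at any time. Its brighter probe averaged 15.57 ± 0.10 (SD, n = 4) on the controls, 15.67 ± 0.19 with AZD1152 at 48 h and 15.67 ± 0.15 with SNS-314 at 48 h. These groups overlapped. The 95% intervals of the 10 differences from 0 h ran from -0.35 to 0.36. Its raw intensity was 34607 to 64097, and the highest raw intensity of any probe on an array was 60491 to 69903, so VIM lay near the upper end of the scale; how far this compressed its differences was not tested. The second VIM probe gave no call either.

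Promoter sequences are shown for PDGFRA and CDH2, the genes with the largest rise and the largest fall. RefSeq (GRCh38.p14) promoter windows were at hand for 7 of the 10 genes, and the 250 bases before each start were searched on both strands for CANNTG, the general E-box read by factors such as TWIST1, and for CAGGTG or CACCTG, the form of it bound by SNAI2, ZEB1 and ZEB2. CANNTG occurred in 61.8% of all 35116 windows and in 9 of 15 windows of these genes, and CAGGTG or CACCTG in 17.5% of all and in 2 of 15, both of them ZEB1 windows. Windows of 1 gene were counted separately, and ZEB1, whose expression was not tested, had the most of the 15. FAP, TWIST1 and SNAI2 had no window. The window of the outermost PDGFRA start (chr4:54229043-54229292, plus strand) held 2 matches to CANNTG, shown in capitals, and none to CAGGTG or CACCTG. The window of the outermost CDH2 start (chr18:28177131-28177380, minus strand) held neither and has no capitals. The sequences run 5′ to 3′ on the strand of the gene.
PDGFRA: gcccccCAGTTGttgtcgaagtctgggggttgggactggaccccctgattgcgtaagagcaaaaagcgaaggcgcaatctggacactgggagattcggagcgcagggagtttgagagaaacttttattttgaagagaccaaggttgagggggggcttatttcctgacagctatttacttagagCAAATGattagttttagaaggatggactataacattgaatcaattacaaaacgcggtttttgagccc
CDH2: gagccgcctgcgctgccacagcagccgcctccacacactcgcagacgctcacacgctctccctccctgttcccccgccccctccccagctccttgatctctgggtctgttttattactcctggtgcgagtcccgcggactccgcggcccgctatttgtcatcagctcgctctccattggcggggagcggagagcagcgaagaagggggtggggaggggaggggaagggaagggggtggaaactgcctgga

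The second question was when the genes moved, taken without the controls. Between 6 h and 48 h, 7 of 9 genes were called with AZD1152 and 6 of 9 with SNS-314, against 42.1% and 46.1% of all genes. FAP, PRRX1, PDGFRA, ZEB2 and SNAI2 rose with both inhibitors. SNAI2 rose by 0.59 ± 0.11 with AZD1152 (adjusted p = 4.11e-05) and by 0.84 ± 0.11 with SNS-314 (adjusted p = 5.27e-08). ZEB2 rose by 0.67 ± 0.11 (adjusted p = 3.23e-06) and by 0.49 ± 0.11 (adjusted p = 0.000290), and PRRX1 by 0.69 ± 0.10 (adjusted p = 2.00e-07) and by 0.67 ± 0.10 (adjusted p = 2.92e-07). CDH2 fell by 0.72 ± 0.14 with AZD1152 (adjusted p = 7.63e-05) and by 1.12 ± 0.14 with SNS-314 (adjusted p = 1.99e-08). TWIST1 was called with AZD1152 (0.30 ± 0.11, adjusted p = 0.0221) and not with SNS-314 (0.20 ± 0.11, adjusted p = 0.122). That TWIST1 call was lost without AZD1152 6 h replicate 1 or 3, without AZD1152 48 h replicate 1 or 2 (0.25 to 0.30, adjusted p 0.0535 to 0.110), with 75th percentile scaling (0.0757) and with no filter (0.0610). With the replicate number as a block, PDGFRB was called as well with AZD1152 (0.21, adjusted p = 0.0472). Same-numbered arrays deviated together here, but every pair shared a chip, so replicate number and chip cannot be told apart.

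Adjacent times were compared after the values had been seen. From 6 h to 12 h, 3 of 9 genes were called with each inhibitor, against 3.13% of all genes with AZD1152 and 5.25% with SNS-314. PRRX1 rose by 0.68 ± 0.10 with AZD1152 (adjusted p = 6.29e-06) and by 0.47 ± 0.10 with SNS-314 (adjusted p = 0.00162). PDGFRA rose by 0.44 ± 0.12 (adjusted p = 0.0256) and by 0.71 ± 0.12 (adjusted p = 5.39e-05), while PDGFRB fell by 0.49 ± 0.10 (adjusted p = 0.00199) and by 0.65 ± 0.10 (adjusted p = 2.53e-05). The receptors for platelet-derived growth factors therefore parted within these 6 h with both inhibitors. The AZD1152 call of PDGFRA was lost without AZD1152 6 h replicate 1 or 2 or AZD1152 12 h replicate 1 or 3 (0.37 to 0.44, adjusted p 0.0720 to 0.181), with 75th percentile scaling (0.0500) and with no filter (0.0816), and by the second probe, which took over without the 3 arrays of large residual spread, the step was 0.69. The SNS-314 call of PRRX1 was lost in a fit of those groups alone (adjusted p = 0.0710).

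Between 12 h and 24 h few steps were called. With AZD1152 the calls from 12 h to 18 h were 1 of 9, PDGFRA (0.34 ± 0.11, adjusted p = 0.0330), against 13.6% of all genes, and from 18 h to 24 h 2 of 9, PRRX1 (0.35 ± 0.09, 0.0323) and PDGFRB (0.37 ± 0.09, 0.0300), against 2.03%. None of the 3 was called without the 3 arrays of large residual spread, where they were 0.36, 0.20 and 0.43 with each gene kept on its probe (adjusted p = 0.143, 0.685 and 0.124) and PDGFRA was 0.11 by its second probe (0.809), nor in a fit of those groups alone (0.163, 0.424 and 0.387) or with no filter (0.0912, 0.125 and 0.118), and 75th percentile scaling also ended those of PDGFRA (0.0506) and PRRX1 (0.0696). Single arrays ended them too: AZD1152 12 h replicates 2 and 4 and 18 h replicate 1 for PDGFRA (0.27 to 0.31, 0.0829 to 0.177), 18 h replicates 1 and 4 and 24 h replicates 2, 3 and 4 for PRRX1 (0.23 to 0.37, 0.0510 to 0.175), and 18 h replicate 1 and 24 h replicates 1, 2 and 3 for PDGFRB (0.34 to 0.38, 0.0636 to 0.0858). The mean of both PDGFRA probes gave 0.10 (0.490). With SNS-314 no gene of the 9 was called from 12 h to 18 h or from 18 h to 24 h, where 4 and 1 had an unadjusted p under 0.05 and 1.26% and 1.10% of all genes were called. Without the 3 arrays of large residual spread ZEB2 was called from 12 h to 18 h with SNS-314 (0.41, adjusted p = 0.0232). From 24 h to 48 h, 3 of 9 were called with AZD1152 and 5 of 9 with SNS-314, against 27.5% and 26.2%. CDH2 fell by 0.64 ± 0.13 (adjusted p = 0.000279) and by 0.66 ± 0.13 (adjusted p = 0.000187) in this last step, PDGFRA fell by 0.56 ± 0.11 (adjusted p = 0.000117) and by 0.29 ± 0.11 (adjusted p = 0.0427), and SNAI2 rose by 0.30 ± 0.10 (adjusted p = 0.0294) and by 0.65 ± 0.10 (adjusted p = 6.05e-06). With SNS-314 FAP and PDGFRB also rose, by 0.27 ± 0.10 (adjusted p = 0.0474) and by 0.33 ± 0.09 (adjusted p = 0.00642). The FAP call was lost without any of SNS-314 24 h replicates 1, 3 and 4 or any of the 4 arrays of 48 h (0.19 to 0.29, adjusted p 0.0528 to 0.204), with 75th percentile scaling (0.15), with no filter (0.123) and with the chip as a fixed block (0.0593). The SNAI2 call with AZD1152 was lost without 24 h replicate 2 or 4 or 48 h replicate 1 or 2 (0.22 to 0.29, 0.0576 to 0.153), and the PDGFRA call with SNS-314 without 24 h replicate 1, 2 or 3 or 48 h replicate 1 or 4 (-0.23 to -0.30, 0.0634 to 0.157). Both SNS-314 calls were also lost in a fit of those groups alone (0.0719 and 0.0714), and with no filter so were the SNAI2 call with AZD1152 (0.0824) and the PDGFRA call with SNS-314 (0.11). With the replicate number as a block, SNAI2 (0.29, adjusted p = 0.0459) and ZEB2 (0.36, 0.0307) were called as well from 18 h to 24 h with AZD1152. So was TWIST1 (0.25, 0.0346) from 24 h to 48 h with AZD1152. Without the 3 arrays of large residual spread that step of TWIST1 was also called (0.25, adjusted p = 0.0421). Same-numbered arrays deviated together in both steps, but 4 of 4 and 3 of 4 pairs shared a chip. Replicate number and chip can therefore hardly be told apart.

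The third question was whether the inhibitors differed at the same time. They were given at different doses, 0.5 and 0.05 µM, so the comparison is of the treatments as used. Of 45 gene and time pairs none was called (limma, adjusted over the 8917 genes in each comparison, lowest adjusted p = 0.321), and 5 had an unadjusted p under 0.05. Among all genes 0.0336% were called at 18 h and 0% at the other times. The largest difference was for FAP at 6 h, 0.32 higher with AZD1152 (95% interval 0.08 to 0.55, adjusted p = 0.999). ZEB2 at 18 h was lower with AZD1152 by 0.27 (interval -0.48 to -0.07), and PDGFRA at 12 h by 0.29 (interval -0.51 to -0.07). For CDH2 at 48 h the difference was 0.15 (interval -0.11 to 0.42), and for PDGFRA at 24 h it was 0.15 (interval -0.07 to 0.36). Of the 45 intervals, the one that reached farthest from 0 in either direction reached 0.563.

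**Figure D4:**
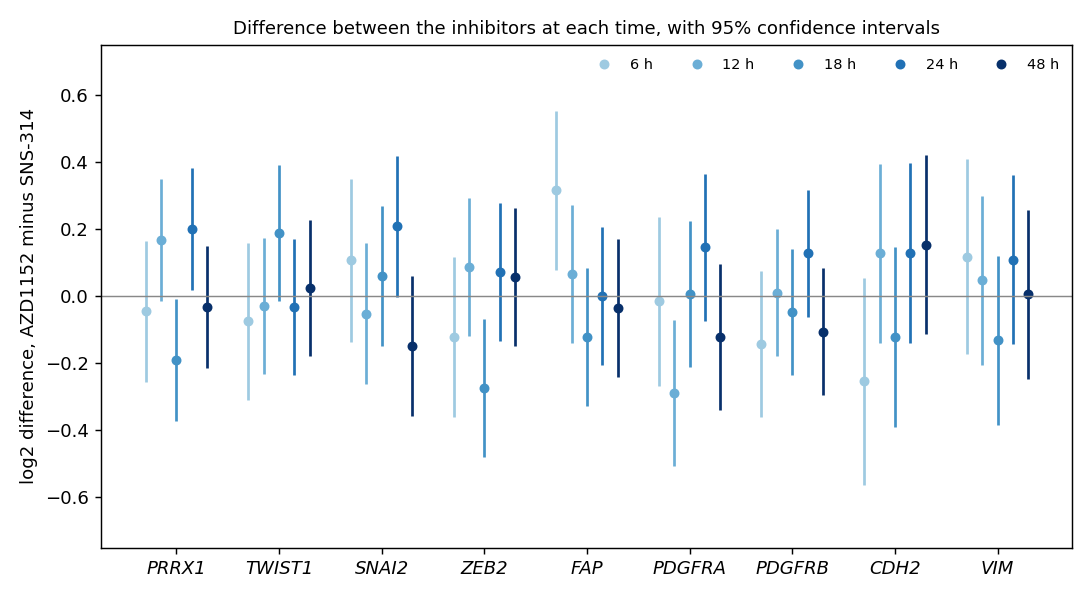
Difference in log2 intensity between AZD1152 and SNS-314 (vertical axis) for each gene (horizontal axis) at 6, 12, 18, 24 and 48 h (light to dark), with 95% confidence intervals. The points lie within 0.32 of 0, and most intervals hold 0.

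Over all 11 groups, 8 of 9 genes were called by limma's F test, against 61.3% of all genes, and VIM was the exception (adjusted p = 0.850). Group means spanned 1.12 for CDH2, 0.96 for PDGFRA, 0.95 for SNAI2, 0.88 for PRRX1, 0.80 for PDGFRB, 0.71 for FAP, 0.67 for ZEB2, 0.33 for TWIST1 and 0.21 for VIM, on the log2 scale. In the order of levels, FAP was highest at 48 h with SNS-314 and then with AZD1152, which did not differ beyond their spread, and only then came the 24 h groups, lower by more than the SD. PRRX1 was highest at 24 h with AZD1152, beyond the spread of the next group, and lowest at 6 h with both inhibitors, below the control. SNAI2 had the 48 h groups on top, then the control, and the 12 h groups at the bottom. PDGFRA had the control and both 6 h groups at the bottom, separated from the rest, and no other neighbours in its order parted. PDGFRB had the 12 h groups at the bottom, and CDH2 the 48 h groups, each below the rest by more than the SD. ZEB2 parted between the 48 h groups and the 24 h groups, and again below SNS-314 at 18 h. For TWIST1 and VIM none of the 10 steps between neighbours exceeded the larger SD.

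The members did not share 1 course. Over the 11 group means Pearson's r was 0.83 between PRRX1 and PDGFRA, 0.85 between ZEB2 and SNAI2, 0.76 between PDGFRB and SNAI2 and -0.90 between FAP and CDH2, but -0.27 between PDGFRA and PDGFRB and -0.02 between PDGFRA and SNAI2. These are descriptions over means that share the arrays of each group. For the 5 genes called at 48 h with both inhibitors, the genes of the whole array with the most similar course over the 11 means were named. FAP was followed most closely by TENT2 (r = 0.99), SNX13 (0.98) and DYNLT3 (0.98), PRRX1 by MEX3C (0.96), SEPSECS (0.96) and MRPS28 (0.95), and PDGFRA by SNX1 (0.97), ZNF280A (0.96) and TSC22D1 (0.96). PDGFRB was followed by RAB40B, OSBPL5 and CTDSP2 (each 0.95), and CDH2 by WRAP53 (0.99), NOL11 (0.99) and ADISSP (0.98). With 8917 genes and 11 means, such values are the extremes of many.

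The wider mesenchymal programme was followed at 48 h through lists of genes, counted by the same test. These lists too were chosen with earlier results of these data known, so their counts and medians are descriptions. Of 17 tested fibroblast and mesenchymal surface markers and matrix genes (32 listed), 5 were higher and 2 lower with AZD1152, and 5 higher and 3 lower with SNS-314. Among all genes 20.8% were higher and 21.8% lower with AZD1152, and 22.3% higher and 23% lower with SNS-314. FN1 (fibronectin) is among the 17 and was not called, but it lay above background on 16 arrays and on no control, so it entered through treated groups, and no median is given for this list. VCAN, a matrix proteoglycan, rose by 0.91 ± 0.14 (adjusted p = 5.51e-07) and by 0.87 ± 0.14 (adjusted p = 1.40e-06), and ACTA2, the smooth muscle actin of myofibroblasts, rose by 0.63 ± 0.11 and by 0.52 ± 0.11. The other calls, named after their values were seen, were COL5A1 and TNC higher and CAV1 and COL6A3 lower with both inhibitors, LOX higher with AZD1152, and NT5E higher and CD44 lower with SNS-314. Of 8 other mesenchymal transcription factors tested (21 listed), 1 was higher and 3 lower with AZD1152 and 2 higher and 3 lower with SNS-314. FOXF1, a forkhead factor, rose by 0.44 ± 0.12 and by 0.60 ± 0.12, and OSR1 fell by 0.48 ± 0.11 and by 0.63 ± 0.11. TCF3 and FOXF2 were lower with both inhibitors and SOX9 was higher with SNS-314, again named after their values were seen. FOXF2 lay above background on 24 of 42 arrays and on 2 of 4 controls, so its differences of -0.38 and -0.34 are read between values partly at background. The Snail relatives SNAI1 and SNAI3 lay above background on no array. The list medians of these factors were -0.15 and -0.12.

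Among the genes that work with the members, PDGFA, a ligand of PDGFRA, rose by 0.45 ± 0.13 with AZD1152 (adjusted p = 0.00416) and by 0.53 ± 0.13 with SNS-314 (adjusted p = 0.000765). It was the 1 gene called of 5 tested ligands and partners, beside 42.5% and 45.3% of all genes called at 48 h. Of 7 tested corepressors that serve the ZEB and Snail factors, none was higher, and 2 were lower with AZD1152 and 4 with SNS-314, beside 21.8% and 23% lower among all genes. The AZD1152 share is near that of all genes. HDAC1, a histone deacetylase, fell by 0.31 ± 0.11 and by 0.41 ± 0.11, and KDM1A, a histone demethylase, fell by 0.31 ± 0.11 and by 0.40 ± 0.11. HDAC2 and SIN3A, named after their values were seen, were lower with SNS-314. The medians of that list were -0.22 and -0.33, beside -0.0021 and -0.0064 over all genes. Of 8 tested genes of TGF-beta signalling, a known inducer of these factors, 1 was higher and 1 lower with AZD1152, and 2 higher and 1 lower with SNS-314. Among all genes 42.5% and 45.3% were called in either direction, so these counts are not particular to this list. TGFB3, SMAD2 and SMAD7 lay above background on at most 2 of 4 controls, so they are read partly at background. The receptor gene TGFBR2 rose by 0.46 ± 0.11 and by 0.47 ± 0.11, and SMAD3 fell by 0.53 ± 0.12 and by 0.57 ± 0.12. TGFBI, named after its values were seen, was the second gene higher with SNS-314.

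Few epithelial genes were measured above background. Of 24 listed epithelial genes 4 were tested, and CDH1 (E-cadherin), EPCAM, the keratins KRT7, KRT8, KRT18 and KRT19 and the regulators GRHL2, ESRP1 and OVOL1 lay above background on no array. ERBB3, a receptor also found in melanocytes, rose by 0.60 ± 0.11 with AZD1152 (adjusted p = 2.40e-05) and by 0.85 ± 0.11 with SNS-314 (adjusted p = 3.85e-08), and MUC1 rose by 0.58 ± 0.13 and by 0.56 ± 0.13. ERBB3 lay above background on 3 of 4 controls and MUC1 on 2, so their changes are read against values partly at background. TJP1, the tight junction protein ZO-1, lay above background on all 42 arrays and is named after its values were seen: it rose by 0.30 with AZD1152 (adjusted p = 0.00538) and differed by 0.20 with SNS-314, which was not called (adjusted p = 0.0635). The fourth, DSP (desmoplakin), lay above background on 8 arrays and no control, and no count over the tested epithelial genes is given. None of 7 other tested genes of cadherins, catenins and their partners, the last being VCL (vinculin) and PKP4, was called at 48 h with either inhibitor. Among all genes 42.5% and 45.3% were called. CTNND1 lay above background on 17 arrays and on no control, and CDH19 on 16 arrays and 2 controls, so both are read near background and no median is given for this list. CDH11, the cadherin of fibroblasts and osteoblasts, lay above background on no array. NES (nestin) was the 1 of 5 other intermediate filament genes called, and it fell by 0.52 ± 0.11 and by 0.36 ± 0.11. Of 5 tested genes of melanoma cell states, TEAD4, a factor of the Hippo pathway, fell by 0.74 ± 0.13 and by 0.77 ± 0.13, and AXL, a receptor kinase of dedifferentiated melanoma, fell by 0.39 ± 0.10 and by 0.52 ± 0.10. WNT5A, named after its values were seen, rose by 0.32 and by 0.36, while SOX10 differed by -0.02 and 0.03 and was not called.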

How the data were processed

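Total RNA of 1205Lu cells was measured on 42 bead arrays. The deposited table gives a bead intensity per probe and array; no background had been subtracted as far as the values show, and what preceded it is not given in the sources used here. A deposited table of log2 values held the same arrays, with one median in every array; how the authors scaled and centred it is not stated, and it served as an alternative. The intensity table carries 2 header lines that disagree. The second matched the log2 values of the named sample for 42 of 42 columns and the first for 1, so the second was used.

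Intensities were corrected by normexp with an offset of 50, quantile normalised and taken to log2. The files give no detection p-values, so the planned detection filter was replaced: a probe counted as above background past the 95th percentile of its array's background, estimated from the mode and lower flank of the intensities, and was kept (13481 probes) if above on at least 3 arrays of 1 group. Symbols came from GEO's platform annotation, updated through RefSeq gene identifiers; 30110 probes had 1 symbol, 8 several and 17194 none. The brightest kept probe stood for each gene, and the other kept probes of PDGFRA, SNAI2 and VIM were also fitted. No 2 arrays held the same values.

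All 11 groups entered 1 limma fit (limma 3.58.1, R 4.3.3), with Benjamini-Hochberg adjustment over 8917 genes within each comparison; the script was tested on simulated data. The alternatives were the deposited log2 values, no background correction, 75th percentile scaling, other filters, the mean of probes, trended variances, the replicate number or the chip as a block, only the groups compared, and each array left out in turn. Chips were taken from the last digits of the column names, which no label calls a chip. Chips 2 and 3, as numbered here, held 2 controls each, and chips 1 and 4 held none. Same-numbered arrays deviated together in every pair between the inhibitors at 6, 12 and 24 h (correlations 0.15 to 0.42) and between 48 h and 6 h (0.10 to 0.25). They also did in 5 of 8 steps between adjacent times (0.115 to 0.445: 6 to 12, 18 to 24 and 24 to 48 h with AZD1152, 6 to 12 and 12 to 18 h with SNS-314). In these comparisons every pair shared a chip, save that from 24 h to 48 h with AZD1152 3 of 4 did. Replicate number and chip can therefore not be told apart there. Against 0 h the same-numbered arrays did not deviate together in every pair, and 1 pair per comparison shared a chip.

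The members and gene lists were chosen with earlier results of these data known. The comparisons of adjacent times and the fits without 3 arrays (with the probe chosen anew or kept) were added after the values were seen. The genes named were all members, up to 2 genes per list, taken by mean absolute change among those called at 48 h with both inhibitors, and the 3 genes most correlated with each member called at 48 h with both.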

Additional observations from a re-analysis of the deposited data

Results flagged for a closer look

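In 4 of the 81 groups of 4 arrays examined, 1 array stood apart from the others by more than the 95% critical value of Dixon's test for its gap over the whole range. Chance gives about 1 such group in 20. CDH2 with AZD1152 at 48 h read 11.43 in replicate 1 against 11.10 to 11.12 in the others (gap over range 0.954). PRRX1 with AZD1152 at 12 h read 12.74 in replicate 1 against 12.81 to 12.82 (0.90). FAP with AZD1152 at 18 h read 10.75 in replicate 4, one of the arrays of large residual spread, against 11.10 to 11.14 (0.89). SNAI2 with AZD1152 at 12 h read 11.95 in replicate 4 against 12.04 to 12.06 (0.872).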

How the results depend on the processing

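Of 47 calls in the 17 planned comparisons, 32 held in every alternative and with every array left out in turn, and no called value changed sign. The 34 calls against 0 h became 24 with no filter on dim probes, 27 with 75th percentile scaling and 38 with the chip as a fixed block, and lay between 27 and 36 with 1 array left out. The 17 calls between adjacent times fell to 10 with no filter and to 11 in fits of only the groups compared, where fewer arrays estimate the spread; with 1 array left out they lay between 14 and 20. The 13 calls of 48 h against 6 h lay between 12 and 14, the 8 genes of the F test stayed at 8 with any array left out, and the 0 calls between the inhibitors stayed at 0 throughout. With the replicate number as a block, 37 calls were made against 0 h, 14 for 48 h against 6 h, 21 between adjacent times and 0 between the inhibitors, and no call was lost. Where the numbers did not pair the arrays, the block added PDGFRB at 18 h with AZD1152 against 0 h (-0.21, adjusted p = 0.0437) and against 12 h (0.22, 0.0457), PRRX1 at 6 h with SNS-314 (-0.32, 0.0421) and ZEB2 at 48 h with AZD1152 (0.24, 0.0429). Within single chips, called values were 0.261 to 1.81 times those of the whole fit. VIM lay near the top of the intensity scale, and how far this compressed its differences was not tested. ZEB1 lay near background and was given no fold change.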
